A study of Mus musculus with 6 samples.

Results

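The genes described here are 36 antiviral effector genes of the type I interferon response, chosen by symbol from the deposited count table. The choice was made with earlier results of these data known. The table lists 33 of them among 22905 gene symbols, and all 33 passed the filter on low counts that left 14439 genes for testing. Mx1, Mx2 and Ddx58 have no row under those symbols and were not analysed here. Rigi, the current symbol of Ddx58, has a row that is reported beside the others and is not counted among them.

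Type I interferons bind a receptor of the chains IFNAR1 and IFNAR2, whose kinases phosphorylate transcription factors of the STAT family. With IRF9, such factors bind the interferon-stimulated response element in the promoters of their target genes. The targets include proteins that bind viral RNA, sense it, degrade it, block its translation, modify other proteins or hold virions at the membrane. In the liver, most cell types can respond, among them stellate cells, endothelial cells and Kupffer cells.

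The samples were labelled as primary hepatic stellate cells, the liver's pericyte-like cells that make scar matrix when activated. They came from mice of the genotype BucheKI/KI-Hep given CCL4, a hepatotoxin used to cause liver injury and fibrosis. By their labels, all 6 libraries share this genotype, the CCL4 treatment and the cell type, and markers of other cell types are given below. The groups were 3 libraries labelled PBS and 3 labelled DOX, and the study's design text speaks of over-expressing BUCHE (butyrylcholinesterase) in hepatocytes. The sources used here give no age of the mice, no promoter for the introduced gene and no word on pooling of animals. Mice lacking that gene and mice not given CCL4 were not analysed here, so effects of DOX itself and of the introduced gene cannot be told apart. The labels do not tie replicates to separate animals, and the p-values therefore cover only differences among these libraries, which may be technical.

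Libraries held 36220282 to 37707364 counted reads, so that 1 read was worth 0.0253 to 0.0293 CPM (counts scaled to a common library size). Bche, which encodes butyrylcholinesterase, stood at 0.212, 0.680 and 0.354 CPM in PBS replicates 1, 2 and 3 and at 35.8, 16.4 and 99.3 CPM in the DOX replicates. It was higher in every DOX library than in every PBS library, 121-fold in the fit (log2 fold change 6.91, SE 0.85, edgeR quasi-likelihood adjusted p = 0.0206), and 97.2-fold without PBS replicate 1 (adjusted p = 0.0313). Hepatocyte markers summed to 123, 251 and 302 CPM in the PBS replicates and to 631, 194 and 2679.6 CPM in the DOX replicates, in the same order as Bche within DOX. Which cells the Bche reads came from was not tested. Of the listed stellate cell markers, Dcn (decorin) was the most abundant, at 353 to 762 CPM. Des (desmin) ranged from 7.61 to 18.2 and Lrat (lecithin retinol acyltransferase) from 1.12 to 3.51 CPM. Cdh5, which defines endothelial cells, was more abundant than any of these, at 2001 to 2751 CPM. Such bulk libraries cannot tell fewer cells of a type apart from less RNA per cell. PBS replicate 1 stood apart from the other PBS libraries in the effector genes, and not in these alone. Over the whole table, it differed from PBS replicates 2 and 3 by a chi-square per degree of freedom of 72.2 and 71.7. PBS replicates 2 and 3 differed by 38.6, and pairs of DOX libraries by 52.3 to 82.1. Results on the effector genes are therefore given with and without PBS replicate 1. Leaving it out is 1 of 6 ways of leaving out a library, and it is not thereby the better estimate.

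Promoter sequence shows what some of these genes have in common beyond their symbols. RefSeq's promoter table for GRCm38.p6 held a window for 26 of the 33 genes, and the 250 bases before the start were searched on both strands for GAAANNGAAA, the core of the interferon-stimulated response element. A gene with several windows counted if any of them held a match. Of these 26 genes 9 held it (34.6%), against 3.46% of the 27025 genes with a window. It was also held by 19 of 44 other interferon-stimulated genes with a window (43.2%). Of genes more closely tied to interferon gamma 10 of 18 held it (55.6%), so it is not particular to the effector genes. The sequences shown run 5′ to 3′ in the sense of the gene, cover the matches and their surroundings, and have the matches in capitals, which show the reverse complement where the match is on the opposite strand. They are of 8 of the 9 genes, from 5 of the 8 functional groups, and include the gene with the most reads (Rsad2) and a pair that turned out identical (Ifit3 and Ifit3b).
Ifit1: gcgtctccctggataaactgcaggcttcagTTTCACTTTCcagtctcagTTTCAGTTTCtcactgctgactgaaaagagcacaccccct
Ifit3: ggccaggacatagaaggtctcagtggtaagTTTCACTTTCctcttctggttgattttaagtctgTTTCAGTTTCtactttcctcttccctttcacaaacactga
Ifit3b: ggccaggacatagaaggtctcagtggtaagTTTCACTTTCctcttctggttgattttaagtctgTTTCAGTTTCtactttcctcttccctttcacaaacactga
Oas1a: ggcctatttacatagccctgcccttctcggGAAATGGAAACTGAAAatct
Oas3: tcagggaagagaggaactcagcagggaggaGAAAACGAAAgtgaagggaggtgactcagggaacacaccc
Isg15: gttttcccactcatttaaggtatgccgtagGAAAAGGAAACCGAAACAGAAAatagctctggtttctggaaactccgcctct
Rsad2: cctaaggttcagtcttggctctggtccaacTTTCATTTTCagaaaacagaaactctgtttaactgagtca
Trim30a: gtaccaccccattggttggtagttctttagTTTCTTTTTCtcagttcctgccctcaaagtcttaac
In GRCm38.p6 coordinates these stretches are Ifit1 chr19:34640755-34640843 (plus strand), Ifit3 chr19:34583343-34583446 (plus strand), Ifit3b chr19:34607739-34607842 (plus strand), Oas1a chr5:120907526-120907575 (minus strand), Oas3 chr5:120777695-120777764 (minus strand), Isg15 chr4:156200845-156200926 (minus strand), Rsad2 chr12:26456533-26456602 (minus strand) and Trim30a chr7:104465194-104465259 (minus strand). The 3 matches of Isg15 and the 2 of Oas1a overlap one another and appear as 1 run of capitals, while the 2 matches of Ifit1, Ifit3 and Ifit3b are apart. The match nearest the start lies 5 to 14 bases before it in Oas1a, 57 to 66 in Isg15, 76 to 85 in Ifit1 and 145 to 154 in Ifit3b. Over the 104 bases shown, Ifit3 and Ifit3b differed at 0 positions. Both genes also share transcript sequence, since 51.2% of the 50-base windows of Ifit3 occur in Ifit3b, and their counts are uncertain to that extent. The same holds for Oas1a, with 57.6% of its windows in Oas1g. A match describes these letters only. Without PBS replicate 1, 7 of the 9 genes with the motif and 13 of the 17 without it in their window were called, and their median log2 fold changes were 0.76 and 0.74 there, and 0.44 and 0.48 over all 6 libraries.

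Every one of the 33 effector genes had a positive log2 fold change, DOX over PBS, while 48.6% of all tested genes did. Their median was 0.48 on the log2 scale, against -0.013 for all tested genes, and the range ran from 0.14 for Ifi44 to 1.53 for Epsti1. Only Epsti1 and Dhx58 passed the edgeR quasi-likelihood test at an adjusted p under 0.05, which is 2 of 33 (6.06%) against 4.38% of all tested genes called higher. DESeq2 called 12 of 33 higher, against 12.3% of the genes it gave an adjusted p. None was called lower, against 2.04% of all tested genes, and none was lower by DESeq2 or at an unadjusted p under 0.05. At an unadjusted p under 0.05, 17 of 33 were higher, against 15.9% of all tested genes. In 17 of 33 genes every DOX library was above every PBS library (16.9% of all tested genes), and in 0 was every DOX library below (17.7%). Adjusted p-values of the 31 genes not called ran from 0.0619 (Zbp1) to 0.681 (Ifi44). Scaling by library totals alone moved the median of all genes by -0.13 on the log2 scale, and left all 33 positive with a median of 0.36, when 35.8% of all tested genes were positive.

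**Figure D1:**
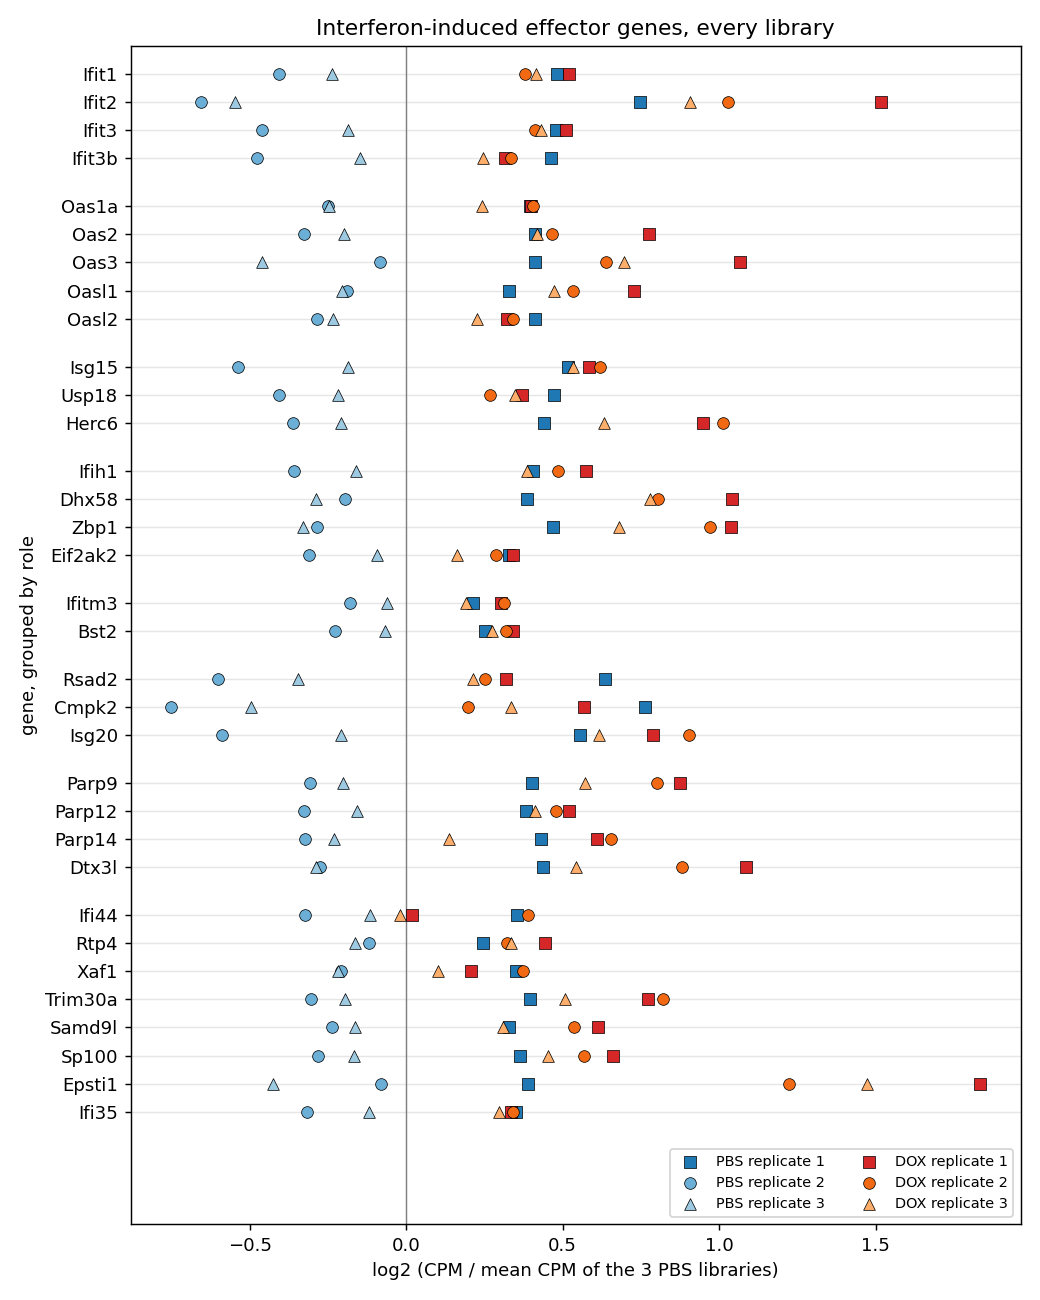
Log2 of the CPM of each effector gene over its mean CPM in the 3 PBS libraries (x axis) in each of the 6 libraries, with genes in rows grouped by role. PBS replicate 1 lies above the other PBS libraries in all 33 rows, and the 3 DOX libraries lie above PBS replicates 2 and 3 in all 33.

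The group mean of PBS hides a split among its libraries. PBS replicate 1 was the highest PBS library for 33 of 33 genes, against 34.2% of all tested genes. Its level over the mean of PBS replicates 2 and 3 had a median of 1.58-fold, from 1.26 for Ifitm3 to 2.60 for Cmpk2, where all tested genes had a median of 0.988. All 3 DOX libraries were above PBS replicates 2 and 3 for 33 of 33 genes, against 22.7% of all tested genes. The 3 genes with PBS replicate 1 more than 2-fold above its fellows were Ifit2, Rsad2 and Cmpk2. Summed over the 33 genes, PBS libraries held 21198, 12068 and 13304 CPM, which is 2.12, 1.21 and 1.33% of each library, and DOX libraries held 23157, 21838 and 19987 CPM, or 2.32, 2.18 and 2.00%. By this sum PBS replicate 1 lay between DOX replicates 2 and 3, and PBS replicates 2 and 3 lay below all others. It was above the lowest DOX library for 16 of the 33 genes, a smaller share than the 67.3% of all tested genes. It was above all 3 DOX libraries for 6, namely Ifit3b, Oasl2, Usp18, Rsad2, Cmpk2 and Ifi35, against 32.2% of all tested genes.

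The DOX libraries were closer to each other. The coefficient of variation of CPM had a median of 28.5% among PBS libraries, from 14.2% (Ifitm3) to 60.6% (Cmpk2), and of 9.48% among DOX libraries, from 1.62% (Ifi35) to 23.4% (Ifit2). It was larger in PBS for 33 of 33 genes, against 44% of all tested genes, whose medians were 12.6% in PBS and 14.7% in DOX. DOX replicate 3 was the lowest DOX library for 26 of 33 genes (35.6% of all tested genes), with a median of 0.899 times the mean of the other DOX libraries.

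Without PBS replicate 1, 26 of 33 genes were called higher (edgeR quasi-likelihood, adjusted p 0.0246 to 0.0471), against 4.2% of all 14780 genes then tested, and 0 were called lower, against 1.08%. Their median log2 fold change was 0.76, and groups did not overlap for 33 of 33 genes (22.5% of the genes then tested). That count restates the one of DOX libraries above PBS replicates 2 and 3. PBS replicate 1 was singled out on these same genes, being the highest PBS library for all 33. Leaving it out was therefore bound to raise their folds, and the 26 calls are no separate support. The folds of the 26 genes ran from 1.42 (Rtp4) to 3.42 (Ifit2). The genes not called were Ifit3b, Eif2ak2, Ifitm3, Bst2, Parp14, Ifi44 and Xaf1. The other ways of leaving out a library gave fewer calls. There were 0 without PBS replicate 2, PBS replicate 3 or DOX replicate 1, and 1 when DOX replicate 2 or 3 was the library left out. At an unadjusted p under 0.05 the first 3 of these gave 9, 9 and 10 genes, against 12.9, 12.5 and 12.1% of all tested genes higher at that level. Of all tested genes, 0% were called higher when PBS replicate 2 or 3 was left out, and 0.516, 2.33 and 4.91% when DOX replicates 1, 2 and 3 were. Over all tested genes, edgeR called 0 without PBS replicate 2 (smallest adjusted p 0.0663) and 0 without PBS replicate 3 (0.0634).

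**Figure D2:**
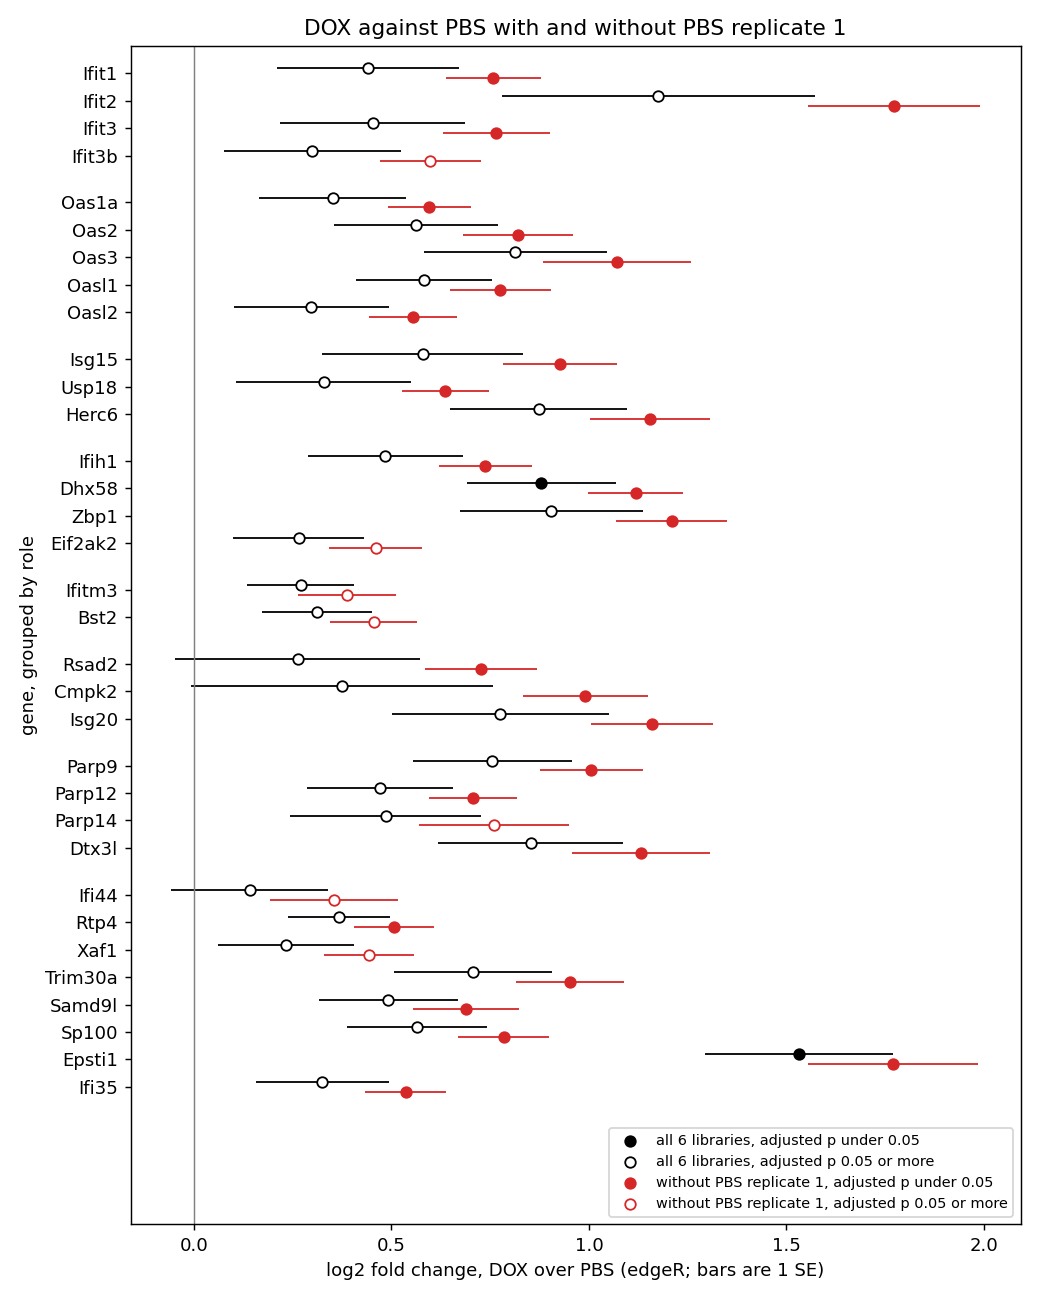
Log2 fold change of DOX over PBS for each effector gene (x axis, edgeR, bars of 1 SE), over all 6 libraries (black) and without PBS replicate 1 (red), filled where the adjusted p is under 0.05. All 33 values are positive in both fits, and the number of filled points goes from 2 to 26 without PBS replicate 1.

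The IFIT proteins bind viral RNA and block its translation, and their 4 genes lie close together on chromosome 19. None of the 4 was called over all libraries and 3 were without PBS replicate 1, with median log2 fold changes of 0.45 and 0.76. Here and for each list below, the share of all tested genes called higher was 4.38% over all libraries and 4.2% without PBS replicate 1. That library was singled out on the effector genes, so calls without it are no separate support for any group of them. Ifit2, the gene of this group with the lowest p, stood at 1040.2, 393 and 424 CPM in the PBS replicates and at 1773, 1264 and 1161 CPM in the DOX replicates. The groups did not overlap, but PBS replicate 1 was close to the lowest DOX library. The fold was 2.26 (log2 1.18, SE 0.40, edgeR adjusted p = 0.109) and, without PBS replicate 1, 3.42 (log2 1.77, SE 0.22, adjusted p = 0.0267). Ifit3, the group's gene with the highest level per length, stood at 1391, 726 and 877 CPM in PBS and at 1423, 1329 and 1344 CPM in DOX. Its level in PBS replicate 1 was within the DOX range, and the fold of 1.37 was not called (edgeR adjusted p = 0.252), while without that library it was 1.70 (adjusted p = 0.0373).

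Those oligoadenylate synthetases that have enzyme activity make the second messenger that activates RNase L. Of 5 genes of this family 0 were called over all libraries (4.38% of all tested genes higher) and 5 without PBS replicate 1 (4.2%). Their median log2 fold changes were 0.56 and 0.78. Oas3 stood at 273, 193 and 149 CPM in PBS and at 429.7, 319 and 332 CPM in DOX. All DOX libraries were above all PBS libraries, at 205 ± 62.8 CPM (SD, n = 3) in PBS and 360.5 ± 60.3 in DOX, a fold of 1.76 (edgeR adjusted p = 0.0789). Oasl1, which restrains translation of Irf7 mRNA in mice, stood at 796, 558 and 550.4 CPM in PBS and at 1052, 919 and 879.8 CPM in DOX. Its groups did not overlap either (fold 1.50, edgeR adjusted p = 0.0844), and without PBS replicate 1 the folds of both were called, at 2.10 for Oas3 (adjusted p = 0.0370) and 1.71 for Oasl1 (0.0340).

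ISG15 is a ubiquitin-like modifier, HERC6 the mouse ligase that attaches it and USP18 the protease that removes it, which also restrains the receptor. Again 0 of 3 genes were called (4.38% of all tested genes higher), and 3 without PBS replicate 1 (4.2%). Isg15 stood at 987, 475 and 607 CPM in PBS and at 1033, 1059.9 and 998 CPM in DOX. PBS replicate 1 was just below the DOX range and the others far below it, for a fold of 1.49 (edgeR adjusted p = 0.187) that became 1.90 without that library (adjusted p = 0.0313). Herc6 stood at 334, 192 and 213 CPM in PBS and at 475, 497 and 381 CPM in DOX. Its groups were further apart, with a fold of 1.83 (log2 0.87, SE 0.22, edgeR adjusted p = 0.0625) and of 2.23 without PBS replicate 1 (adjusted p = 0.0276).

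Among the sensors of viral nucleic acid, Dhx58 rose. It encodes LGP2, the RIG-I-like receptor without signalling domains that regulates the others. Its level was 142, 94.6 and 88.8 CPM in PBS and 223, 189 and 186 CPM in DOX, or 108 ± 29.0 and 199 ± 20.3 CPM (SD, n = 3). Every DOX library was above every PBS library, and the fold was 1.84 (log2 0.88, SE 0.19, edgeR adjusted p = 0.0441). The call held without PBS replicate 1 (fold 2.17, adjusted p = 0.0246) and was lost without any 1 of the other 5 libraries. Zbp1, a sensor of left-handed nucleic acid that can start necroptosis, stood at 319.7, 190.0 and 184 CPM in PBS and at 474, 453.5 and 371 CPM in DOX. Its groups did not overlap, with a fold of 1.87 just outside the threshold (edgeR adjusted p = 0.0619) and of 2.31 without PBS replicate 1 (adjusted p = 0.0258). Ifih1, which encodes the RNA sensor MDA5, had a fold of 1.40 and, without PBS replicate 1, of 1.67 (edgeR adjusted p = 0.0325). Eif2ak2, which encodes the translation-blocking kinase PKR, had folds of 1.20 and 1.38 and was called in neither (adjusted p = 0.0773 without that library). Rigi, the gene of RIG-I, stood at 526, 389 and 410.3 CPM in PBS and at 537, 532 and 499.8 CPM in DOX. Here too PBS replicate 1 was within the DOX range, and its fold of 1.18 was not called (edgeR adjusted p = 0.276), nor was that of 1.31 without PBS replicate 1 (0.0870).

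The 2 membrane restriction factors had the lowest median log2 fold change of the 8 functional groups, 0.29, and 0.42 without PBS replicate 1. Ifitm3, which blocks virus entry from endosomes and had the highest level per length of all 33 genes, stood at 1693, 1291 and 1399.8 CPM in PBS and at 1804, 1814 and 1669.6 CPM in DOX. The groups overlapped through PBS replicate 1, and the fold was 1.21 (edgeR adjusted p = 0.239). Bst2 encodes tetherin, which holds budding virions, and stood at 685, 491 and 548 CPM in PBS and at 728, 717 and 695 CPM in DOX. Its groups did not overlap, with a fold of 1.24 (edgeR adjusted p = 0.190). Neither was called without PBS replicate 1, where the folds were 1.31 (adjusted p = 0.125) and 1.37 (0.0703).

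Viperin (Rsad2), its neighbour Cmpk2 and the exonuclease Isg20 act on nucleotides and RNA, and Rsad2 and Cmpk2 were among the genes with the widest split of the PBS group. Rsad2 stood at 3164, 1343 and 1603 CPM in PBS and at 2541, 2428 and 2361 CPM in DOX. PBS replicate 1 was the highest of all 6 libraries and PBS replicates 2 and 3 were the lowest, so the mean of 2037 ± 985 CPM (SD, n = 3) in PBS describes none of them. The fold was 1.20 (log2 0.26, SE 0.31, edgeR adjusted p = 0.617) and, without PBS replicate 1, 1.66 (log2 0.73, SE 0.14, adjusted p = 0.0445). Cmpk2, named after its values were seen, stood at 804, 282 and 336 CPM in PBS and at 703, 544 and 598 CPM in DOX, again with PBS replicate 1 highest and the other PBS libraries lowest. Its fold was 1.30 (edgeR adjusted p = 0.557) and 1.99 without PBS replicate 1 (0.0322). Isg20 stood at 96.8, 43.8 and 57.0 CPM in PBS and at 114, 123 and 101 CPM in DOX. Here PBS replicate 1 remained below all DOX libraries, and the fold was 1.71 (edgeR adjusted p = 0.120), or 2.23 without it (adjusted p = 0.0276).

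PARP9, PARP12 and PARP14 are ADP-ribosyltransferases, and DTX3L is a ubiquitin ligase that works as a complex with PARP9. Of their 4 genes 0 were called over all libraries (4.38% of all tested genes higher) and 3 without PBS replicate 1 (4.2%). Parp9 stood at 344, 211 and 226 CPM in PBS and at 478, 454 and 387 CPM in DOX. The groups did not overlap, with a fold of 1.69 (log2 0.76, SE 0.20, edgeR adjusted p = 0.0676) and of 2.01 without PBS replicate 1 (adjusted p = 0.0276). Parp9 and Dtx3l overlap by 558 bases on chromosome 16, and whether counting used the strand is not given in the sources used here, so reads from the overlap cannot be told apart. Parp14 stood at 1495, 886 and 944 CPM in PBS and at 1691, 1747 and 1218 CPM in DOX. Its level in PBS replicate 1 exceeded that in DOX replicate 3, the DOX library with the lowest level, and the fold of 1.40 was not called (edgeR adjusted p = 0.234), nor was that of 1.69 without PBS replicate 1 (0.0737).

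Of the other 8 effectors only Epsti1 was called over all libraries (4.38% of all tested genes higher), and 6 were without PBS replicate 1 (4.2%). Epsti1 (epithelial stromal interaction 1, chr14:77904239-78002656 in GRCm38.p6) stood at 47.6, 34.4 and 27.1 CPM in PBS and at 129.5, 84.8 and 100.8 CPM in DOX. The lowest DOX library was well above PBS replicate 1, which was the highest of its group here too. Its means were 36.3 ± 10.4 and 105 ± 22.6 CPM (SD, n = 3), a fold of 2.89 (log2 1.53, SE 0.24, edgeR adjusted p = 0.0264) that was 3.41 without PBS replicate 1 (adjusted p = 0.0267), and the call was lost without PBS replicate 2, PBS replicate 3 or DOX replicate 1. Ifi35, the group's gene with the highest level per length, stood at 239, 151 and 173 CPM in PBS and at 236, 237 and 230.3 CPM in DOX. PBS replicate 1 was above all DOX libraries, and the fold of 1.25 was not called (edgeR adjusted p = 0.249), while without that library it was 1.45 (adjusted p = 0.0434). The remaining 6, Ifi44, Rtp4, Xaf1, Trim30a, Samd9l and Sp100, had folds from 1.10 (Ifi44) to 1.63 (Trim30a).

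Per length, the deposited FPKM (counts scaled to library total and gene length) ranked the 33 genes from 20.6 for Isg20 to 2476 for Ifitm3 as means over 6 libraries, with a median of 137 against 4.86 for all tested genes. Isg15 at 1126, Bst2 at 793 and Rsad2 at 588 FPKM followed Ifitm3, and the other 29 genes were under 500. Epsti1, the gene with the largest fold of the 33, was among the 5 under 50, at 29.7 FPKM, and Dhx58 stood at 61.1.

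**Figure D3:**
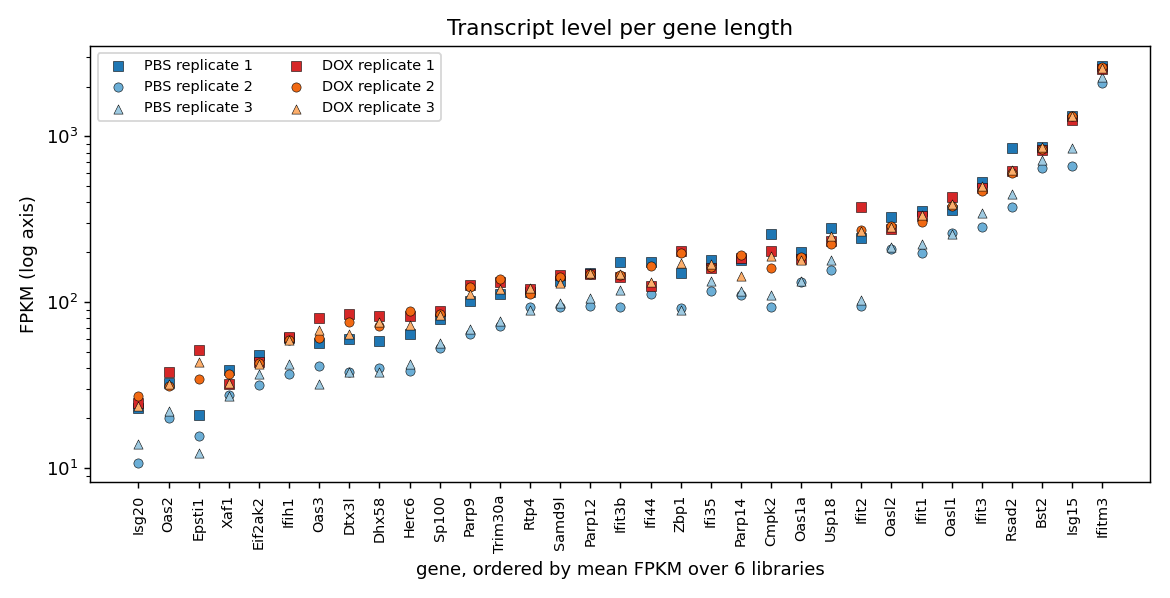
FPKM of each effector gene on a log axis, per library. Ifitm3 is the highest of the 33 and Isg20 the lowest, and the distance between PBS replicate 1 and PBS replicates 2 and 3 is small beside the range over genes.

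Of 15 ligand genes listed, 12 have no row under their symbol and were not analysed here. Ifnb1, the gene of interferon beta, had 13, 10 and 9 reads in PBS and 2, 7 and 3 in DOX, and Ifna4 had 0 or 1 read in each library, so neither entered the test. Ifng, the gene of the type II interferon, stood at 0.663, 0.288 and 0.202 CPM in PBS and at 7.35, 4.70 and 1.26 CPM in DOX. It was higher in every DOX library (fold 11.5, edgeR adjusted p = 0.0425) and missed the threshold without PBS replicate 1 (fold 17.9, adjusted p = 0.0510).

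Of 16 tested genes of the receptors and of JAK-STAT signalling, 2 rose and 0 fell, with a median log2 fold change of 0.33, and 3 rose without PBS replicate 1. Over all libraries, those that rose, Ptpn6 (2.34-fold, edgeR adjusted p = 0.0367) and Socs3 (2.25-fold, 0.0443), encode inhibitors of cytokine signalling. Stat2 had a fold of 1.27, and Irf9, which binds DNA together with STAT2, one of 1.03 (log2 0.04, SE 0.09, edgeR adjusted p = 0.820), with 184 to 216 CPM in PBS and 198 to 208 CPM in DOX. Neither was called without PBS replicate 1, at folds of 1.46 (adjusted p = 0.0970) and 1.08 (0.509).

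Of 20 tested genes of the sensing pathways that induce interferon, 3 rose and 6 did without PBS replicate 1, with a median of 0.59 for all 20 over all libraries. They were Ikbke (2.77-fold, edgeR adjusted p = 0.0247), a kinase of IRF3 and IRF7, Sting1 (2.15-fold, 0.0278), the adaptor of cytosolic DNA sensing, and Myd88 (1.75-fold, 0.0310), the adaptor of Toll-like receptors. Irf7, the factor that amplifies interferon genes, stood at 1127, 745 and 709 CPM in PBS and at 1957, 1464 and 1411 CPM in DOX. Its groups did not overlap, at a fold of 1.87 just outside the threshold (edgeR adjusted p = 0.0565) and of 2.21 without PBS replicate 1 (adjusted p = 0.0325).

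PBS replicate 1 was also high for most other genes stimulated by interferon, and how the lists differ in this was not tested. Of 49 tested, 8 rose (16.3%) and 30 did without PBS replicate 1 (61.2%), with medians of 0.68 and 0.91, and PBS replicate 1 was the highest PBS library for 43. Ifi205, of the PYHIN family of DNA-binding proteins, rose 3.13-fold (edgeR adjusted p = 0.0200), and Ddx60, an RNA helicase gene, 2.00-fold (0.0240). Of 25 tested genes more closely tied to interferon gamma, 13 rose (52.0%) and 20 did without PBS replicate 1 (80.0%), with medians of 1.51 and 1.85. For 24 of them PBS replicate 1 was the highest PBS library (34.2% of all tested genes). Its median over the mean of PBS replicates 2 and 3 was 1.81-fold there, where the effector genes had 1.58, so this split is not particular to the effector genes. The GTPase gene Tgtp1 stood at 21.1, 12.5 and 11.3 CPM in PBS and at 181, 136 and 62.4 CPM in DOX, 8.46-fold higher (edgeR adjusted p = 0.0240). DOX replicate 3 was the lowest DOX library for 25 of these 25 genes, at a median of 0.526 times the mean of the others, where the effector genes had 0.899. Ifng was lowest in DOX replicate 3 as well.

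**Figure D4:**
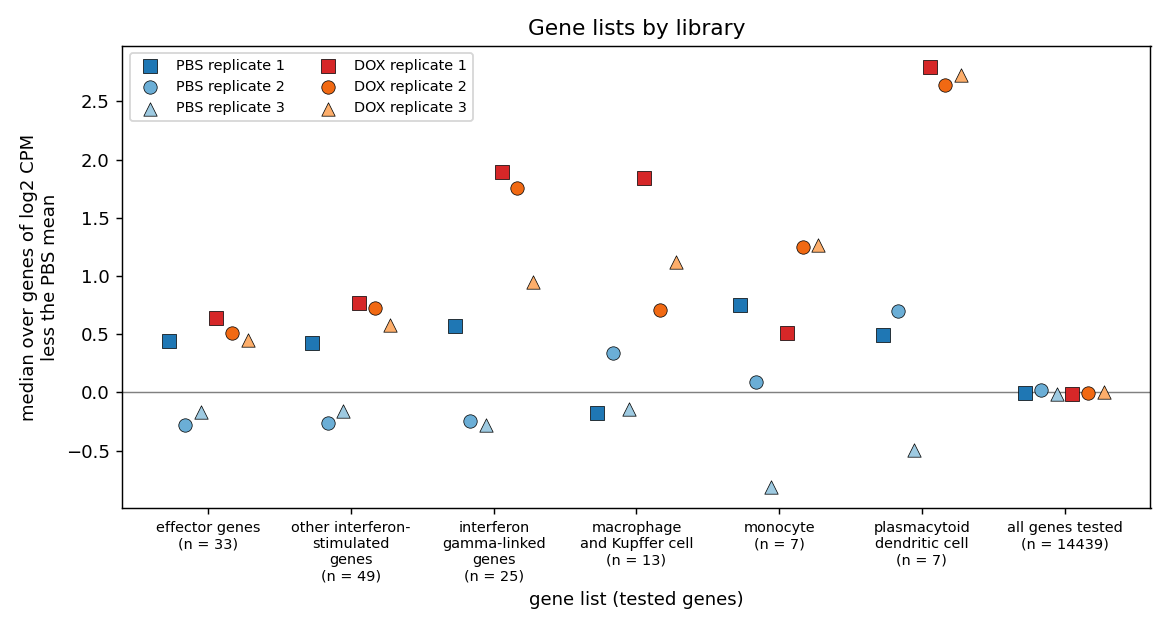
Median over genes of log2 CPM less the PBS mean (y axis) for each list of genes (x axis) in the 6 libraries. For the effector genes the medians are 0.44, -0.28 and -0.17 in PBS and 0.64, 0.51 and 0.45 in DOX, while for the macrophage list PBS replicate 1 is the lowest of the 6.

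Some marker lists of other cell types held genes called between the groups as well, while other lists held none. Summed over 13 macrophage and Kupffer cell markers, PBS libraries held 4449, 6722 and 4364 CPM and DOX libraries 14589, 7877 and 8961 CPM, and 2 of 13, the complement genes C1qb and C1qc, were called higher (0 of 13 without PBS replicate 1). The most abundant were Mpeg1, at 989.9 to 1442 CPM in PBS and 1655 to 2663 in DOX, and Lyz2. Every DOX library was above every PBS library in this sum, and PBS replicate 1, high in the effector genes, was not high in it. Of 7 plasmacytoid dendritic cell markers 4 were called higher (Siglech, Ccr9, Klk1 and Pacsin1). Siglech stood at 1.70, 2.17 and 0.354 CPM in PBS and 9.07, 8.05 and 10.1 CPM in DOX. Without PBS replicate 1 Siglech and Pacsin1 missed the threshold (adjusted p = 0.0686 and 0.0569) and Runx2 of the same list passed it (0.0436). Marker genes called are named after their values were seen. The sum of these 7, most of it Tcf4, ranged from 225 to 244 CPM in PBS and from 242 to 265 CPM in DOX.

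PBS replicate 1 was the highest PBS library for 6 of 7 monocyte markers, whose sum was 486, 243 and 198 CPM in PBS and 507, 518 and 544 CPM in DOX. That PBS replicate 1 was near the DOX libraries in this sum rests on F10, the most abundant of them, at 262, 108 and 78.6 CPM in PBS and 134, 194 and 219 CPM in DOX. The other 6 summed to 224, 135 and 119 CPM in PBS and to 373, 323 and 325 CPM in DOX. Of the 7, Plac8 was called higher between the groups, and without PBS replicate 1 Ly6c2 was as well (adjusted p = 0.0408). Sums of T and NK cell markers were 0.960 to 4.06 CPM in PBS and 7.24 to 16.9 CPM in DOX, with 2 of 7 called higher (Nkg7 and Gzma). Those of neutrophil markers were 2.48 to 5.28 and 8.57 to 19.9 CPM, with 2 of 3 called higher (S100a8 and S100a9). Conventional dendritic cell markers summed to 72.9 to 95.3 CPM in PBS and 74.1 to 91.5 in DOX (Flt3 called of 5), B cell markers to 0.733 to 1.19 and 1.24 to 3.96 CPM (0 of 2), and cholangiocyte markers to 15.6 to 57.9 and 65.1 to 103 CPM (Epcam called of 4). Without PBS replicate 1 the calls of S100a8 (adjusted p = 0.0671), Flt3 (0.0670) and Epcam (0.0944) were lost, and Cd3e of the T and NK list was called (0.0391). Endothelial markers ranged from 5165 to 6450 CPM in PBS and from 4700.2 to 5861 CPM in DOX, hepatocyte markers from 123 to 302 and from 194 to 2679.6 CPM, and stellate cell markers from 639 to 1429.7 and from 772 to 1239 CPM, with 0 called of 8, 8 and 10. All 8 hepatocyte markers had a positive log2 fold change, with a median of 2.65. Of them 7 were higher at an unadjusted p under 0.05 (edgeR quasi-likelihood), against 15.9% of all tested genes. DOX replicate 3 was the highest DOX library for 8 of 8. PBS replicate 1 was the lowest PBS library for 8 of 8 hepatocyte, 4 of 4 cholangiocyte and 6 of 8 endothelial markers. It was so for 7 of 13 macrophage and 3 of 10 stellate cell markers, and for 5415 of 14439 tested genes. The stellate cell sums rest largely on Dcn, at 353 to 762 CPM the most abundant of the 10. In every library the stellate cell sum was below the endothelial and the macrophage sums. The share of stellate cells in the libraries was not tested. No marker was at 0 in every library. The part of these cell types in the effector genes' levels was not tested.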

How the data were processed

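RNA was sequenced from 6 libraries labelled as primary hepatic stellate cells, 3 of them PBS and 3 DOX. Per the protocols in the labels, they were made with a SMARTER mRNA-Seq kit from total RNA. The authors deposited raw counts per gene symbol, and FPKM values that equal those counts per gene length and library total for 100% of nonzero values within a relative tolerance of 1e-04. The submitters' processing notes list the builds GRCm38, hg38 and mm10 without saying what each was used for. Aligner, counting tool and use of strand: not given in the sources used here.

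Groups came from sample titles. Pairs of replicates differed beyond sampling noise in a chi-square test of counts (38.6 to 82.1 per degree of freedom), so none was counted as a repeat. Counts were fitted with edgeR 4.0.16 (R 4.3.3): TMM factors (0.923 to 1.06), filterByExpr (minimum count 10, minimum total 15), the quasi-likelihood test of group over all 6 libraries, two-sided, Benjamini-Hochberg over all 14439 genes, threshold 0.05. The SE was derived from the F statistic, and the script was tested on simulated data. CPM use TMM-scaled library sizes, and values after ± are SD of 3 libraries. Log2 CPM of gene lists use a prior count of 2. Each percentage given for all tested genes is the same count over the whole table.

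The genes, the pathway and marker lists and their use were chosen with earlier results of these data known. Values in every library are given, in each functional group, for genes past the threshold, for the gene with the lowest p and for the gene with the highest mean FPKM. From pathway lists up to 3 genes with the lowest p are named, with Irf7, Irf9 and Stat2. A further gene of that rule is not reported here. Alternatives were RLE, upper-quartile and library-total scaling, no filter, a filter of 5 CPM in 3 libraries, DESeq2 1.42.0, limma-voom (limma 3.58.1), a robust fit, a block for the replicate number, limma on FPKM (log2 with a pseudocount of 1 or 0.1, and of 1 for genes of at least 1 FPKM in 3 libraries), and leaving out each library.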

Additional observations from a re-analysis of the deposited data

How the results depend on the processing

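The number of effector genes called higher depended on the setting, while the median log2 fold change stayed between 0.33 and 0.76 in all of them. Against 2 calls over all libraries, DESeq2 gave 12 (12.3% of all genes with an adjusted p there), no filter on low counts gave 4 (3.6%) and limma on log2(FPKM + 1) gave 1 (2.93%). Leaving out 1 library in turn gave 0 to 26 calls, against 0 to 4.91% of all tested genes called higher, and 0.33 to 0.76 for the median. Groups then did not overlap for 17 to 33 genes, against 19.8 to 23.5% of all tested genes. Over all 6 libraries that share was 16.9%. With library totals alone 12 of 33 did not overlap (12% of all tested genes), against 17, and all genes split into 611 called higher and 730 lower, against 632 and 294. The other scalings, the CPM filter, limma-voom, the robust fit and the other FPKM settings gave 2 calls each. So did counting Rigi as a member, an alternative chosen after seeing the data. In these settings 3.42 to 5.99% of all tested genes were called higher. No setting called any effector gene lower. The log2 fold change of Ifi44 ran from -0.0015 without DOX replicate 2, where it turned negative, to 0.35 without PBS replicate 1. The cause was not tested.

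Replicate numbers were the same in both groups. Same-numbered libraries deviated from their group means with correlations of 0.0949, -0.106 and 0.232. Pairs of other numbers had correlations of -0.230 to 0.140. Whether same-numbered libraries shared animals or a batch is not given in the labels and cannot be told from these values. With the replicate number as a block, 7 effector genes were called higher (4.31% of all tested genes). Not every library correlated best with its own number. The lowest count of any of the 33 genes in any library was 1073 reads (Epsti1), and the common biological coefficient of variation over all tested genes was 0.230.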
